A study of Arabidopsis thaliana with 24 samples.

Results

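Leaf 3 of Arabidopsis thaliana was followed from expansion to maturity in plants grown with mannitol, a sugar alcohol used to impose mild osmotic stress on seedlings. The comparison was chosen by the labels alone: 3 arrays of mature leaf on 25 mM mannitol (day 22 after sowing, leaf area 40 mm2) against 3 arrays of expanding leaf on 25 mM mannitol (day 15, 7 mm2), which are 6 of the 24 arrays of the series. The same 2 harvests on medium with 0 mM mannitol (mature leaf, control, and expanding leaf, control, 3 arrays each) served to ask which of these changes differ without the stress. The labels give the same day and area for control and mannitol leaves of a stage. All plants were wild type Col-0, grown in vitro. Per the design text, replicates are independent experiments and each sample is a pool of many plants; each array is treated here as 1 replicate. Total RNA was hybridised to Affymetrix ATH1 arrays, and the deposited values are log2 levels, 1 per gene, so a difference of 1 is a 2-fold change. The hour of harvest is not given.

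A leaf that stops expanding changes from a sink that imports sugars and amino acids to a source that exports them. Division and the stomatal lineage have ended or are ending, walls stop loosening, and the demand for new ribosomes falls. Abscisic acid, the hormone of water deficit, acts through receptors, PP2C phosphatases, SnRK2 kinases and bZIP factors on genes for protective proteins and raffinose-family sugars; in older leaves it also bears on the approach to senescence.

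Mature mannitol leaves had 3856 genes higher and 4467 lower than expanding mannitol leaves at an adjusted p under 0.05 (limma with Benjamini-Hochberg adjustment over all 20777 genes), 18.6% and 21.5% of the genes tested. Every count of list members called under mannitol below is to be read against these shares. At a change of at least 2-fold, 797 genes rose (3.84%) and 858 fell (4.13%), and 130 rose and 128 fell by at least 4-fold. The median change over all genes was -0.04 on the log2 scale. In control leaves 3904 genes were called higher (18.8%) and 4493 lower (21.6%), with a median change of 0.01. With each array centred on its median, the share of higher calls moved to 53.4% under mannitol (46.3% as deposited) and to 58.4% in control leaves (46.5% as deposited), so the balance of rises and falls depends on the scaling.

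Array medians of the 12 arrays lay between 5.91 and 6.04, and were lower in mature than in expanding mannitol leaves (5.97 against 6.03, exact two-sided permutation test, p = 0.1, the smallest 3 against 3 arrays can give). Correlations between arrays of a group ran from 0.990 to 0.996, while 2 replicates differed gene by gene with an SD of 0.195 to 0.325. With 3 arrays a group, precision is limited by their number. The lowest 25% of all genes had a mean level under 4.1, and a fold change against a level near or below that value may be understated. The marker lists bear out a leaf: 33 photosynthesis genes had a median level of 13.35 to 13.42 in the mature and 13.44 to 13.47 in the expanding mannitol arrays, while 6 root markers had 4.3 to 4.43 and 4.21 to 4.36, and 8 shoot meristem markers had 3.83 to 3.90 and 3.81 to 3.86. Of the root markers PYK10, a beta-glucosidase of endoplasmic reticulum bodies, was the exception with a mean of 7.15 in mature and 8.61 in expanding mannitol leaves.

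Members of the raffinose list and of the abscisic acid and dehydration list were among the largest rises. Galactinol synthase 2 (GolS2, AT1G56600), which makes the galactinol used to build raffinose, had levels of 9.81, 10.26 and 10.02 in mature mannitol leaves, against 4.19, 4.92 and 4.51 in expanding mannitol leaves. The groups were far apart, and the change of 5.49 ± 0.26 (SE, log2), a 45.0-fold rise, was the largest of the genes called (adjusted p = 3.39e-13). SIP2 (AT3G57520), an alpha-galactosidase-like enzyme that acts on raffinose, stood at 10.53, 10.32 and 10.37 in mature and 6.17, 5.65 and 5.89 in expanding mannitol leaves, a 22.7-fold rise (4.51 ± 0.17). The drought-inducible linker histone HIS1-3 (AT2G18050) read 9.0, 9.35 and 9.31 in mature against 5.31, 4.84 and 4.62 in expanding mannitol leaves, a rise of 4.3 ± 0.35. All mature mannitol values of these genes lay above all expanding ones, as the rule that named them required. In control leaves their changes were 5.50, 3.99 and 4.08, and none of the differences between mannitol and control passed the test (adjusted p = 0.997, 0.293 and 0.880, limma).

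NCED3 (AT3G14440), whose product carries out the rate-limiting cleavage in abscisic acid synthesis, had 6.59, 7.68 and 7.31 in mature mannitol leaves, against 4.56, 4.34 and 4.12 in expanding mannitol leaves. Its rise of 2.85 ± 0.29 (adjusted p = 3.97e-08, limma) stood beside a control change of 3.05. Of 34 measured genes of the abscisic acid and dehydration list, 29 rose and 1 fell under mannitol, against 18.6% and 21.5% of all genes, with a median change of 1.24. The control counts were 29 and 0, with a median of 1.33. The rises covered the PP2C phosphatases that hold the pathway in check (HAI2 3.01, HAI1 2.55, PP2CA 1.38, HAB1 1.37, ABI2 1.29, ABI1 1.18), the bZIP factors ABF3 (1.16) and ABF4 (0.79), and the homeodomain factors HB-7 (2.27) and HB-12 (2.2). Among the protective proteins, the dehydrin RAB18 (AT5G66400) reached 9.54, 10.03 and 9.80 in mature mannitol leaves, against 7.37, 7.19 and 6.97 in expanding mannitol leaves, a 6.11-fold rise. RD29A (LTI78 in the reference table, AT5G52310), a classic marker of osmotic stress, rose by 1.02, and in control leaves by 1.13. CYP707A3, an abscisic acid hydroxylase that inactivates the hormone, was the member that fell (-0.61, adjusted p = 0.0316, limma). Its control change was 0.04. It was not called with the arrays centred or quantile-normalized. Its call was also lost without mature mannitol replicate 1, mature mannitol replicate 2 or expanding mannitol replicate 1.

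Other sugar and storage genes moved with them. Beside GolS2 and SIP2, the raffinose list had rises of DIN10 (1.40), GolS1 (1.11) and the raffinose synthase SIP1 (RS5, 0.92), which made 5 of 9 members; none fell, and the median was 0.92. GolS3, GolS4, the stachyose synthase STS and a further alpha-galactosidase-like gene had changes between -0.08 and 0.07. In the trehalose list 7 of 11 members rose and 1 fell, led by the class II trehalose phosphate synthases TPS10 (1.74), TPS11 (1.53) and TPS8 (1.28). BAM6 (AT2G32290), a beta-amylase family member, had 7.69, 8.18 and 8.06 in mature against 4.24, 4.21 and 4.33 in expanding mannitol leaves, a 13.2-fold rise. Of 19 starch genes 6 rose (31.6%) and 4 fell (21.1%), against 18.6% and 21.5% of all genes. APL3, a large subunit of ADP-glucose pyrophosphorylase, rose by 1.76 and the plastid beta-amylase CT-BMY by 1.35, whereas the plastid phosphorylase PHS1 fell by 1.26.

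Transport lists went both ways. The phloem amino acid permease AAP2 (AT5G09220) had 8.95, 9.04 and 8.81 in mature mannitol leaves, against 4.94, 5.08 and 5.62 in expanding mannitol leaves, a 13.2-fold rise; its control change was 2.43, and the difference of 1.29 had an adjusted p of 0.0864 (limma), or 0.0165 with the replicate number as a block within each stage. Of 24 genes of sucrose metabolism and sugar transport, 10 rose (41.7%) and 9 fell (37.5%), against 18.6% and 21.5% of all genes. The sucrose exporter SWEET11 rose by 1.26, the sucrose phosphate synthase ATSPS4F by 1.68 and the vacuolar fructose transporter SWEET17 by 1.2, while the cell wall invertase ATBFRUCT1 fell by 2.19. SWEET17 differed from control leaves, where its change was -0.04 (difference 1.24, adjusted p = 0.00141). The aquaporin TIP2;2 rose by 1.92, and 6 of 13 aquaporins rose (46.2%) and 4 fell (30.8%), or 2 fell without mature mannitol replicate 3. The nitrate transporter gene NRT1.5 rose by 1.93. Among 16 nitrogen genes 4 rose (25.0%) and 5 fell (31.2%), near the shares over all genes, and 3 fell without mature mannitol replicate 1.

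The remaining large rises had few roles in common. Cytochrome P450 CYP71B4 rose by 3.70, and loci AT1G19960 (4.11), AT4G09760 (4.05), AT1G64360 (3.55), AT1G62510 (3.5) and AT2G41190 (3.42) rose beside it. The rule that named them required no overlap between mature and expanding mannitol arrays. Of the 8323 genes called under mannitol, 8017 had no such overlap. AT1G62510 ended at 13.02, 12.92 and 12.94, against 9.59, 9.56 and 9.22 in expanding mannitol leaves. LTP3, a lipid transfer protein, rose by 3.5.

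Recycling genes rose, while most photosynthesis genes were not called. Of 16 autophagy genes 13 rose and 0 fell under mannitol, with a median of 0.71, among them 9 genes of the ATG8 family, whose lipid-bound products build the autophagosome membrane, from ATG8B (1.37) to ATG8H (0.45). In control leaves 12 rose and 0 fell. Of 6 genes of chlorophyll breakdown 4 rose and 0 fell: NYE1, the magnesium-removing STAY-GREEN protein, by 0.76, the pheophytinase PPH by 0.75, ACD1 by 0.73 and ACD2 by 0.45. Against this, 31 of 33 nuclear photosynthesis genes were not called, 2 fell (LHCB4.3 by 0.79 and PSBQA by 0.27) and the changes of the list ran from -0.79 to 0.20. The median level of this list was 13.35 to 13.47 in the mannitol arrays of both stages, near the highest value measured (14.36). Whether changes were hidden at such high levels was not tested. Of 15 Calvin cycle genes 12 were not called. CP12-2, a small regulator of the cycle, rose by 1.05, PRK rose by 0.47 and the triose phosphate isomerase TIM fell by 0.28. In chlorophyll synthesis 4 of 12 genes fell, GSA1 by 1.54 and PORB by 1.08 among them, and 1 rose.

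Sugar-starvation genes had more rises than falls. In the sugar-starvation list 11 of 22 members rose and 2 fell. SEN1 (AT4G35770), a dark-inducible gene, had 7.79, 7.48 and 7.79 in mature mannitol leaves, against 4.83, 4.71 and 4.32 in expanding mannitol leaves, a rise of 3.07 ± 0.26. Asparagine synthetase ASN1 rose by 1.88, the leucine-breakdown enzyme IVD by 1.49 and the proline dehydrogenase ERD5 by 1.15. SEN1 rose more in control leaves (4.47, difference -1.40, adjusted p = 0.0369, limma), as did the senescence regulator NAP (AT1G69490; 2.74 under mannitol, 3.82 in control leaves, difference -1.08, adjusted p = 0.0292). NAP had 9.42, 9.95 and 9.59 in mature against 7.29, 6.76 and 6.68 in expanding mannitol leaves.

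Among 19 senescence genes 7 rose and 6 fell under mannitol (median 0.09), where 9 rose and 0 fell in control leaves (median 0.41). The difference was called for 9 of the 19, all negative, against 1.76% of all genes. With the replicate block within each stage 10 were negative and 1 positive, against 3.28% and 3.17% of all genes. SAG29 (2.97), NAP, SEN1 and WRKY70 (1.71) rose under mannitol. NAC6 (also named ORE1), a NAC factor that drives leaf ageing, rose by 0.78 under mannitol and by 2.36 in control leaves. BCB, SAG21, WRKY53, YLS9, WRKY6 and NAC042 fell under mannitol, by 3.48, 1.41, 1.23, 1.23, 1.0 and 0.95. In control leaves SAG21 rose by 1.21 and the other 5 were not called. SAG12, the cysteine protease of late senescence, had a change of 0.04 (adjusted p = 0.765, limma).

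**Figure D1:**
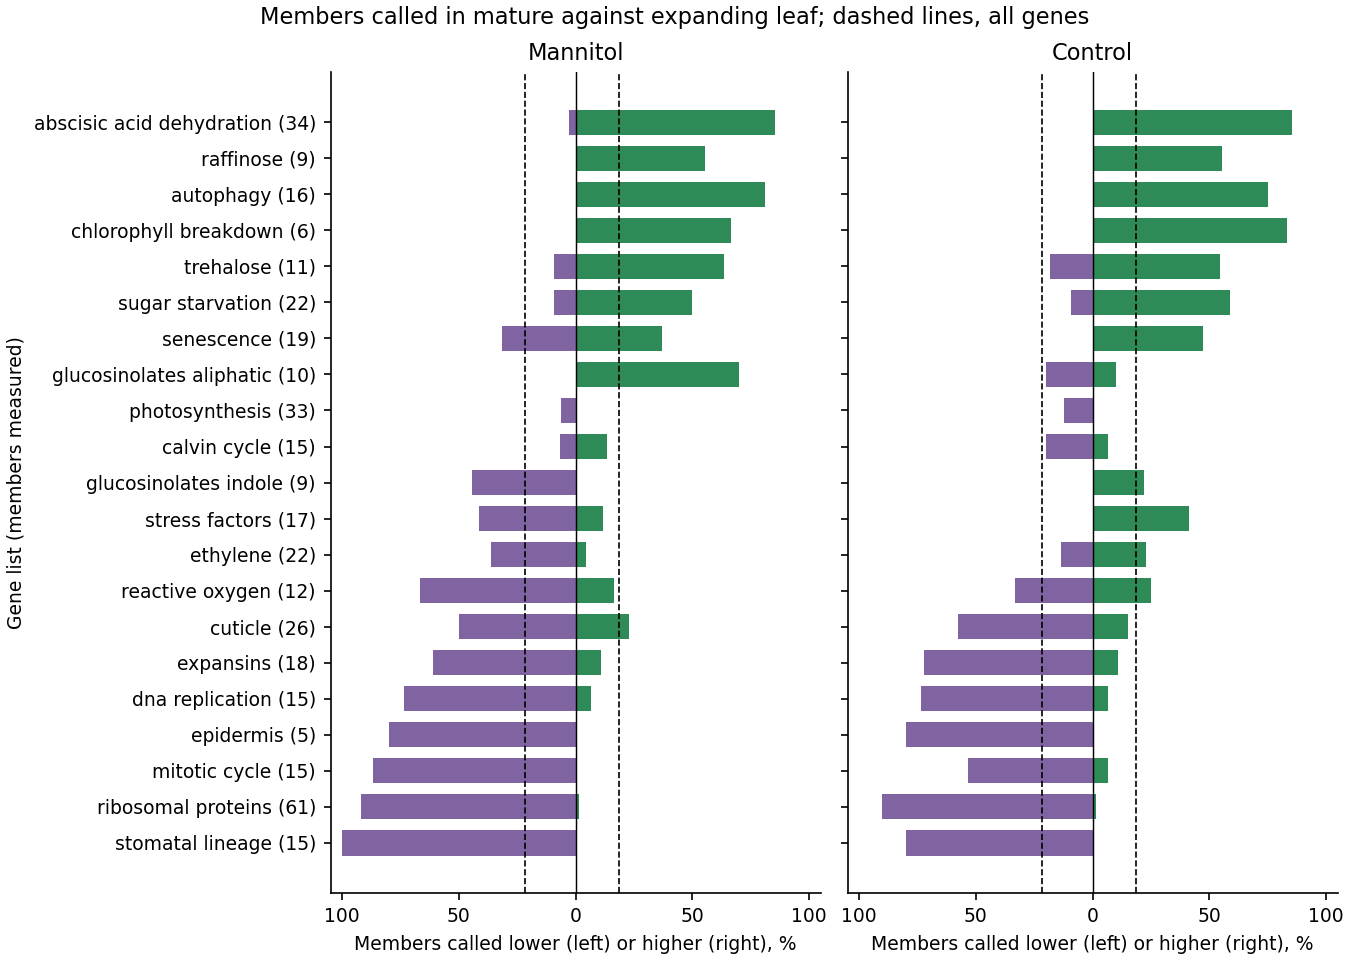
Share of the measured members of 21 gene lists called higher (green, right) or lower (purple, left) in mature against expanding leaf, under mannitol (left panel) and in control leaves (right panel), with the number measured in brackets and the share over all genes as dashed lines. Abscisic acid, raffinose and autophagy genes were mostly higher and ribosomal, division and stomatal lineage genes mostly lower in both panels, while the aliphatic and indole glucosinolate, stress factor and senescence lists had other counts in the 2 panels.

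The largest falls were those of LTL1, GER3 and PDF1. LTL1 (AT3G04290), a GDSL lipase, had levels of 4.08, 3.95 and 4.56 in mature mannitol leaves, against 10.63, 10.86 and 10.90 in expanding mannitol leaves, the largest fall called (-6.60 ± 0.14, 96.8-fold, adjusted p = 1.25e-19, limma). GER3 (AT5G20630), a germin-like apoplastic protein, stood at 5.30, 5.25 and 6.17 in mature and 11.91, 11.74 and 12.06 in expanding mannitol leaves, an 80.6-fold fall. PDF1 (AT2G42840), a proline-rich protein of the outermost cell layer, had 4.60, 4.61 and 4.78 against 9.78, 9.76 and 9.70, a 33.9-fold fall. These genes were also lower in mature than in expanding control leaves, by 6.82, 6.67 and 4.35. Of the 3, PDF1 passed the test of the difference (-0.73, adjusted p = 0.0144).

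Further large falls were those of AT1G10640 (-4.28), a polygalacturonase-family gene, AT5G45670 (-4.21), a GDSL lipase, AT3G54400 (-4.08), an aspartyl protease, AT2G33850 (-3.95) and AT4G29020 (-3.78). The rule that named them required all mature mannitol arrays to lie below all expanding mannitol arrays. AT5G45670 fell further in control leaves (-5.79, difference 1.58, adjusted p = 7.73e-06, limma): it stayed at 5.13, 4.93 and 5.53 in mature mannitol leaves, against 3.65, 4.1 and 3.66 in mature control leaves. AT2G33850 fell less in control leaves (-1.89, difference -2.06).

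**Figure D2:**
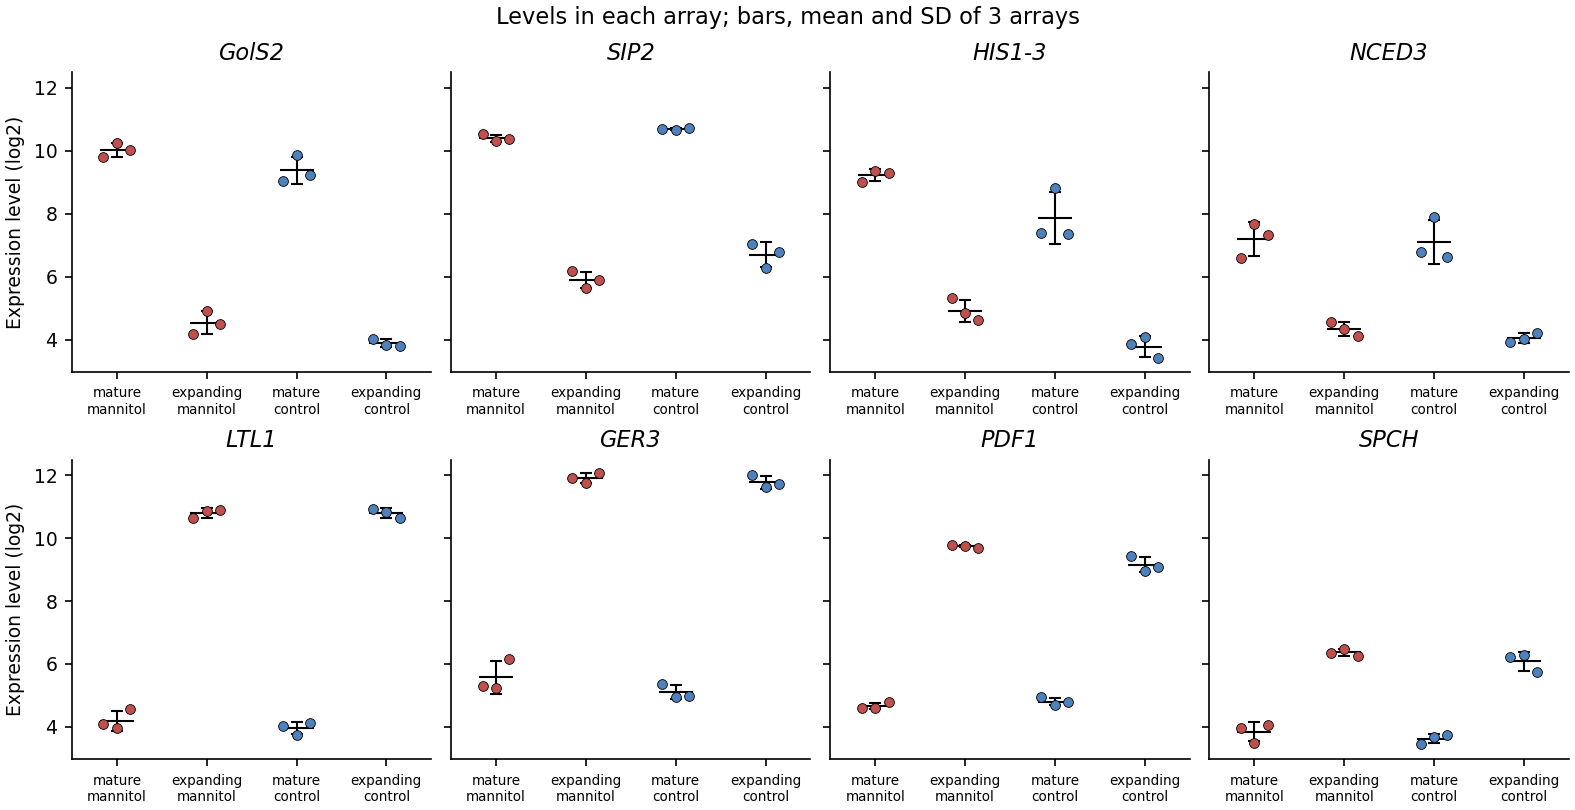
Expression level (log2, vertical axis) of 4 genes that rose and 4 that fell, for each array of mature and expanding leaf under mannitol (red) and control (blue); bars give the mean and SD of 3 arrays. Mature and expanding arrays did not overlap for any of the 8 genes in either medium. Under mannitol this was a condition of the rule for large rises and falls, by which all but NCED3 and SPCH were named. GolS2 had a change of 5.49 under mannitol and 5.50 in control leaves.

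The epidermis and cuticle lists fell in part. Of 5 epidermis genes 4 fell, among them PDF1 and the homeodomain factors ATML1 (-0.97) and PDF2 (-0.69). In the cuticle list 13 of 26 members fell and 6 rose. The long-chain acyl-CoA synthetase LACS1 (AT2G47240) had 4.53, 4.58 and 4.74 in mature mannitol leaves, against 8.51, 7.71 and 8.30 in expanding mannitol leaves, an 11.8-fold fall, with a control change of -1.32 (difference -2.24, adjusted p = 7.71e-06, limma). BDG1 (-1.48), CYP86A8 (-1.3) and GPAT8 (-1.14), which act in cutin formation, fell, while the wax genes CER1 (1.80), KCS2 (1.65) and CUT1 (KCS6, 1.28) rose. CER4, an alcohol-forming reductase of wax synthesis, rose by 0.46 under mannitol and fell by 0.59 in control leaves. Of 7 lipid transfer protein genes 2 rose and 3 fell, with changes from -4.88 for LTP2 to 3.5 for LTP3. All 5 called members of 7 measured GLIP lipases fell, by at most 0.80; without the first or the third expanding mannitol array 3 of the 7 were called lower, and 1 of the 7 was left to test without the 25% of genes with the lowest levels.

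Division, replication and stomatal lineage genes fell. Of 15 genes of the mitotic cycle 13 fell and 0 rose, with a median of -1.01. The cytokinesis syntaxin SYP111 (KNOLLE, AT1G08560) had 5.36, 5.53 and 5.43 in mature against 7.47, 7.55 and 7.57 in expanding mannitol leaves (-2.09), and the mitotic kinase CDKB2;1 fell by 1.81. CYCB1;1, a marker of the transition from G2 to M phase, had 4.19, 4.18 and 4.23 against 4.78, 5.10 and 4.83 (-0.70, adjusted p = 0.000394); in control leaves it was -0.07, and the difference of -0.63 had an adjusted p of 0.0922, or 0.0411 with the replicate block within each stage. In proliferating leaf on day 9 the mean of CYCB1;1 was 8.61 under mannitol and 8.58 in control leaves, so both later stages lie near the bottom of its range. Of 15 DNA replication genes 11 fell and 1 rose (median -1.09), the sliding clamp PCNA1 by 1.79 and the helicase subunits MCM4, PRL (MCM7) and MCM2 by 1.57, 1.49 and 1.47.

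All 15 stomatal lineage genes fell under mannitol, against 21.5% of all genes, with a median of -0.81; in control leaves 12 fell and 0 rose. SPCH (AT5G53210), the factor that starts the lineage, had 3.96, 3.5 and 4.07 in mature mannitol leaves, against 6.36, 6.49 and 6.25 in expanding mannitol leaves, a 5.74-fold fall. SDD1 (-2.88), a protease, and TMM (-2.23), a receptor-like protein, limit the number of stomata. In whole-leaf RNA, fewer cells of a type and less RNA per cell cannot be told apart. Among 8 measured genes of mature guard cells OST1 rose (0.76), KAT1 fell (-0.52) and 6 were not called. KAT1, a potassium channel, fell more in control leaves (-1.72, difference 1.2, adjusted p = 0.00170, limma). Without the first expanding mannitol array KAT1 was not called under mannitol (-0.39, adjusted p = 0.0521).

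Ribosomal protein genes fell almost as a block. Of 61 measured, 56 fell and 1 rose under mannitol (median -0.76), and 55 fell and 1 rose in control leaves (median -0.68). RPS6 (AT4G31700), whose protein is phosphorylated by S6 kinase, had 9.72, 9.37 and 9.53 in mature against 11.19, 11.43 and 11.33 in expanding mannitol leaves, a 3.42-fold fall; RPL3B fell by 1.31, and RPL9 and PSRP3/1, which belong to plastid ribosomes, by 1.28 and 1.35. The difference from control leaves was called for 0 of the 61 by limma, and 4 had an unadjusted p under 0.05. Over all genes 1.66% were called positive and 1.76% negative. With the replicate block within each stage 1 was called, RPL3B, which was negative, against 3.28% of all genes.

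Most expansins fell. Of 18 expansins 11 fell and 2 rose (median -0.89). EXPA6, EXPB1, EXP3 and EXPA10 fell by 1.67, 1.63, 1.48 and 1.23, and EXPA11 rose by 1.56. Among 33 xyloglucan endotransglucosylase genes 7 fell (21.2%) and 5 rose (15.2%), close to the 21.5% and 18.6% over all genes. XTH9 (AT4G03210) had 6.13, 5.54 and 5.80 in mature mannitol leaves, against 9.05, 8.58 and 9.01 in expanding mannitol leaves (-3.06), and XTH16 and XTH8 fell by 2.5 and 2.21. EXPB1, XTH8 and XTH9 fell further in control leaves (-2.91, -3.31 and -4.08), with differences of 1.28, 1.1 and 1.02 that passed the test. In the secondary wall and lignin list 8 of 18 fell and 6 rose: the cellulose synthase IRX1 fell by 1.24, the laccases IRX12 and LAC17 by 1.19 and 1.09, and 4CL2 rose by 1.34. The xylem proteases XCP1 and XCP2 fell by 2.35 and 1.51, while the phloem genes PP2-A1 and SUC2 rose by 1.2 and 0.73, so that the vascular markers had 4 rises and 2 falls among 9. Primary wall cellulose synthesis had 1 rise (GH9A1, 0.34) and 1 fall (CSI1, -0.37) among 8, where 0 rose and 6 fell in control leaves. The difference was called for 0 of the 8, with or without the replicate block within each stage. GH9A1 lost its call without mature mannitol replicate 3 or expanding mannitol replicate 3.

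Across genes, the maturation change under mannitol followed that in control leaves (Pearson r = 0.83, Spearman rho = 0.74 over 20777 genes, which are not independent replicates). The comparisons share no array but share harvest days, and the labels do not say whether they share experiments. Of the genes called higher under mannitol, 2843 were also called higher in control leaves, 73.7% of the mannitol list and 72.8% of the control list. Of those called lower, 3301 were shared, 73.9% and 73.5% of the lists. Among the 2-fold rises under mannitol, 94.9% were called higher in control leaves, and among the 2-fold falls 85.2% were called lower.

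The change itself differed between mannitol and control leaves for 709 genes (limma interaction, adjusted p under 0.05): 344 had a more positive change under mannitol (1.66% of all genes) and 365 a more negative change (1.76%). Same-numbered mannitol and control arrays of a stage deviated together, with correlations of 0.12, 0.21 and 0.16 in expanding and 0.29, 0.42 and 0.06 in mature leaves. With the replicate number as a block within each stage, an alternative chosen after seeing the data, there were 658 positive (3.17%) and 681 negative calls (3.28%), and 697 of the 709 genes were among them. Without the expanding control replicate 2 there were 533 positive and 537 negative calls, without the mature mannitol replicate 2 there were 184 and 252, and without the mature control replicate 3 there were 211 and 271. Of the 365 negative genes 187 differed by at least 2-fold, as did 77 of the 344 positive genes. Falling under mannitol without a call in control leaves described 177 of the 365 negative genes, and the median level of the 365 was 5.27 in mature and 6.37 in expanding mannitol leaves, against 5.33 in mature and 4.90 in expanding control leaves. Of the 344 positive genes 235 fell in control leaves, and 128 fell under mannitol.

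**Figure D3:**
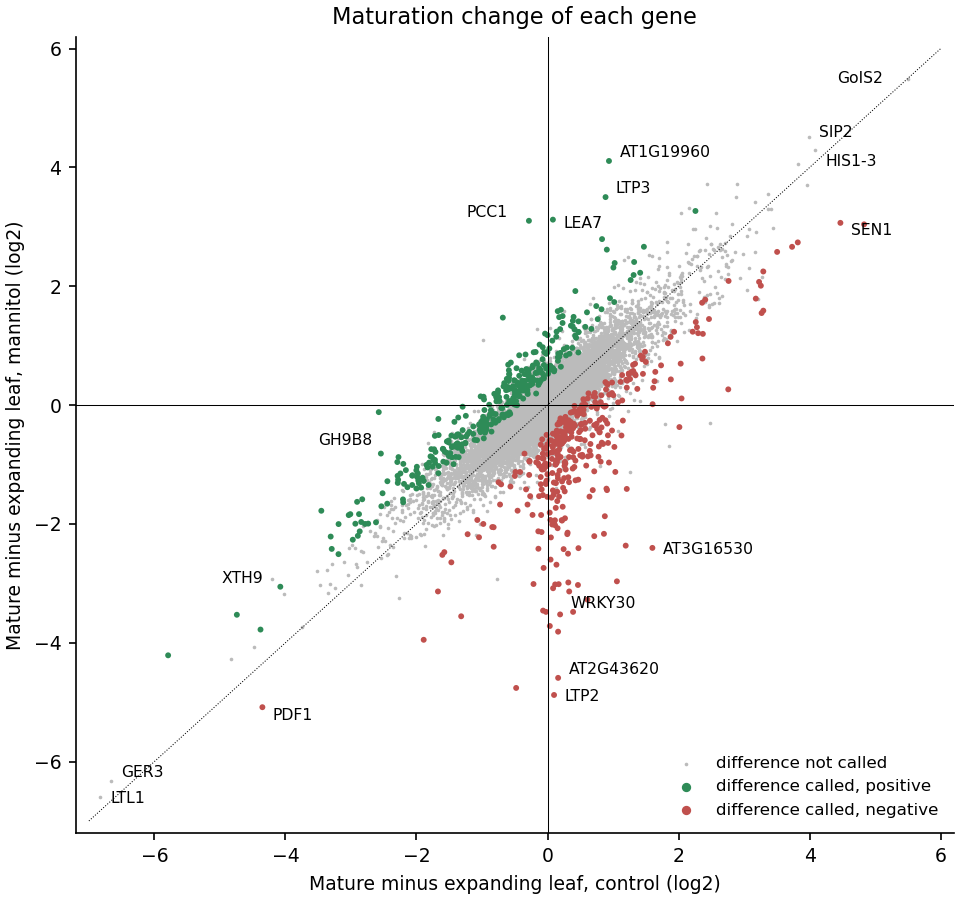
Mature minus expanding leaf (log2) of all 20777 genes under mannitol (vertical axis) against control (horizontal axis); green and red points are genes called for a positive or a negative difference, grey points are not called, and the dotted line marks equal change. GolS2, LTL1 and GER3 lie along the line at both ends, and a column of red points below a control change near 0 runs down to LTP2 at -4.88.

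The largest negative differences were those of genes whose mean was highest in expanding mannitol leaves among the 4 groups of these 2 harvests. LTP2 (AT2G38530), a lipid transfer protein of the epidermis, had 6.14, 5.84 and 6.0 in mature mannitol leaves, against 10.82, 10.75 and 11.04 in expanding mannitol leaves, a 29.4-fold fall. Its control levels were 5.11, 4.28 and 5.24 in mature and 4.68, 5.19 and 4.47 in expanding leaves, which overlap, and the difference was -4.98 ± 0.38 (SE, adjusted p = 4.58e-08, limma). In proliferating leaf it averaged 13.1 under mannitol and 12.3 in control leaves, so it was high at day 9 in both media and at day 15 under mannitol.

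The other large negative differences were of enzymes, a transcription factor and secreted proteins. AT2G43620, of the chitinase family, whose members cut fungal walls, had 5.53, 4.52 and 5.4 in mature mannitol leaves, against 10, 9.39 and 9.84 in expanding mannitol leaves (-4.59), with 4.19, 4.01 and 4.70 in mature and 3.95, 4.43 and 4.04 in expanding control leaves (0.16). ATPMEPCRB (AT4G02330), a pectin methylesterase, fell by 4.76 to 3.84, 3.71 and 4.2, against 9.10, 8.14 and 8.79 in expanding mannitol leaves. CYP81F2 (AT5G57220), which hydroxylates indole glucosinolates, fell by 3.72 to 3.94, 3.85 and 4.18, against 8.31, 7.09 and 7.72. All mature mannitol values of CYP81F2 lay within the range of the mature control values (3.78, 3.84 and 4.23).

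The transcription factor WRKY30 (AT5G24110) had 3.57, 3.82 and 3.77 in mature mannitol leaves, against 8.06, 6.14 and 7.53 in expanding mannitol leaves (-3.52). The spread within expanding mannitol leaves was wide, with the second replicate the lowest, and the same replicate was lowest for AT1G26380, a flavin-linked oxidoreductase (4.44, 4.03 and 4.28 in mature, 8.96, 7.04 and 8.20 in expanding mannitol leaves; -3.81). BCB, a blue copper protein, and AT1G65500 fell by 3.48 and 3.28. The natriuretic peptide gene PNP-A fell by 2.97, and the lectin gene AT3G16530 by 2.40. AT3G16530 rose in control leaves (1.60), and PNP-A had a control change of 1.06 that was not called (adjusted p = 0.142, limma).

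The salicylate markers went separate ways. PR5 (AT1G75040) fell by 3.01 under mannitol (6.76, 5.46 and 6.62 in mature, 9.42, 8.83 and 9.62 in expanding leaves), where its control change was 0.17 (difference -3.18, adjusted p = 0.00263, limma). PR1 (AT2G14610), the usual marker of the pathway, read 7.81, 4.81 and 7.82 in mature mannitol leaves, against 4.92, 4.77 and 4.77 in expanding mannitol leaves. It was called higher (1.99, adjusted p = 0.00500), but the second mature array stayed within the expanding range. BGL2 rose by 1.85, with 1.44 to 2.62 and an adjusted p of up to 0.0447 over the alternatives (limma). CBP60G, a regulator of salicylate synthesis, fell by 1.27. Of 16 salicylate genes 2 rose and 3 fell, against 18.6% and 21.5% of all genes, and 4 rose without mature mannitol replicate 2, without expanding mannitol replicate 1 or with the arrays centred.

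Stress-response factors, ethylene genes and peroxide-handling genes had more falls than rises. Of 17 stress factors 7 fell and 2 rose under mannitol, and 7 rose and 0 fell in control leaves. The difference was called for 5, all negative, against 1.76% of all genes. With the replicate block within each stage 9 were called, all negative, against 3.28% of all genes. WRKY33 (AT2G38470) had 5.32, 5.44 and 5.66 in mature mannitol leaves, against 7.82, 7.00 and 7.21 in expanding mannitol leaves (-1.87), and rose by 0.87 in control leaves (difference -2.75, adjusted p = 2.33e-06, limma). STZ, a zinc finger repressor, fell by 0.95 under mannitol and rose by 0.81 in control leaves, and ERF5 fell by 1.08. ZF2 (AZF2) and DREB2A rose by 1.22 and 0.97. The count of 2 rises was 4 under several alternatives, and the 7 falls were 4 without the first expanding mannitol replicate.

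In the ethylene list 8 of 22 members fell and 1 rose, where 3 fell and 5 rose in control leaves. The difference was called for 1 of the 22, which was negative, against 1.76% of all genes. With the replicate block within each stage 7 were called, all negative, against 3.28% of all genes. EFE, which carries out the last step of ethylene synthesis, fell by 0.97, and the synthase ACS6 by 1.01. ACS6 had 6.49, 6.62 and 6.69 in mature against 8.26, 6.78 and 7.77 in expanding mannitol leaves, and lost its call without the first expanding replicate (highest adjusted p over the alternatives 0.109). Of 12 genes of reactive oxygen scavenging 8 fell and 2 rose; the cytosolic peroxidase APX1 fell by 1.14, SAPX by 0.94 and CSD2 by 0.54, and the catalase CAT2 rose by 0.58. In alternative respiration 4 of 11 rose and 3 fell: AOX1A rose by 1.04 and NDA1 by 0.97, while the carrier UCP5 fell by 2.22 and BCS1 by 0.98.

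The 2 branches of glucosinolate synthesis moved apart. In the aliphatic branch, which starts from methionine, 7 of 10 genes rose and 0 fell under mannitol (median 0.72), where 1 rose and 2 fell in control leaves (median 0.19). BCAT4 (AT3G19710), the transaminase of the first step, had 11.03, 11.15 and 10.78 in mature against 8.62, 9.21 and 9.09 in expanding mannitol leaves, a 4.04-fold rise; FMO GS-OX1, MAM1 and CYP83A1 rose by 1.42, 1.3 and 1.19. Their control changes were 1.08, 0.39, 0.56 and 0.41. The difference was called for 2 of the 10, and for 7 with the replicate block within each stage, all positive. Positive calls over all genes were 1.66%, or 3.17% with that block. The 2 were FMO GS-OX1 (1.03, adjusted p = 0.0213, limma) and the regulator MYB28, which rose by 0.59 under mannitol and fell by 0.59 in control leaves (1.18, adjusted p = 0.0418). In the indole branch, which starts from tryptophan, 4 of 9 genes fell and 0 rose under mannitol, and 2 rose and 0 fell in control leaves. Beside CYP81F2, CYP79B2 fell by 0.98, MYB51 by 0.63 and CYP83B1 by 0.58. The difference was called for CYP81F2, MYB51 and CYP79B2, all negative, against 1.76% of all genes. With the replicate block within each stage 4 of the 9 were called, all negative, against 3.28%.

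**Figure D4:**
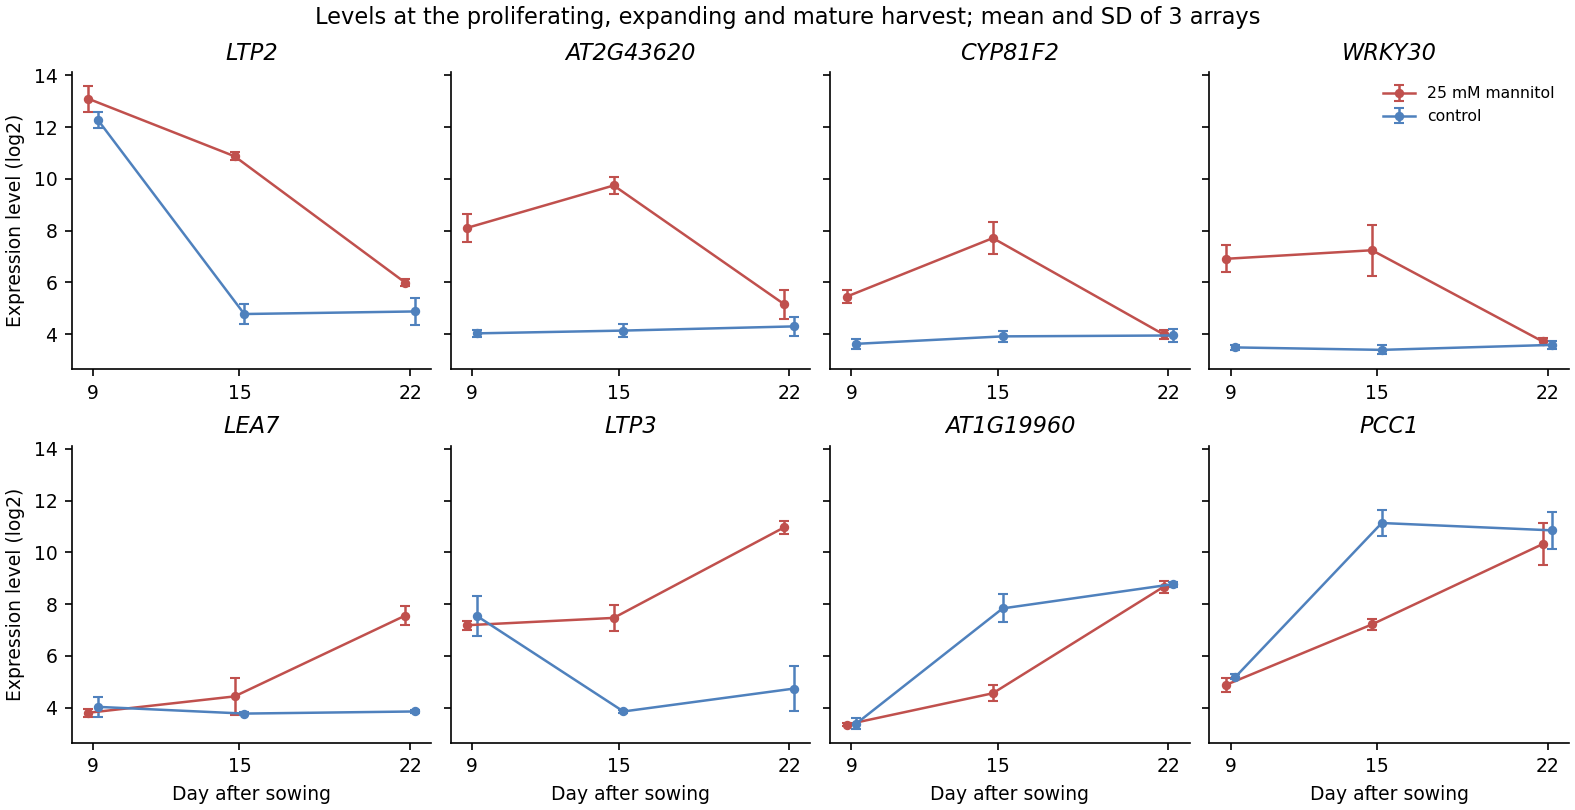
Expression level (log2, vertical axis) against day after sowing (9, 15 and 22: proliferating, expanding and mature leaf 3) under 25 mM mannitol (red) and control (blue) for 4 genes with a negative difference (upper row) and 4 with a positive difference (lower row); points and bars are the mean and SD of 3 arrays. WRKY30, CYP81F2 and AT2G43620 are above control at days 9 and 15 and come down by day 22, LEA7 and LTP3 are highest in mature mannitol leaves, and AT1G19960 and PCC1 are near the control mean at day 22.

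Positive differences took several forms. In some genes a rise under mannitol was larger than the change in control leaves. The late embryogenesis abundant protein gene LEA7 (AT1G52690) had 7.96, 7.45 and 7.26 in mature mannitol leaves, against 5.24, 3.88 and 4.2 in expanding mannitol leaves, an 8.70-fold rise. Control leaves had 3.93, 3.80 and 3.84 when mature and 3.77, 3.83 and 3.71 when expanding, and the difference was 3.04 ± 0.35 (adjusted p = 1.35e-05, limma). LEA4-5 rose by 2.62 under mannitol and 0.91 in control leaves (difference 1.71), RD29B (LTI65 in the reference table, AT5G52300) by 2.31 and 1.01 (1.31), and AT3G13672 by 2.79 and 0.83 (1.96). LTP3 (AT5G59320) had 10.68, 11.15 and 11.08 in mature mannitol leaves, against 8.02, 7.37 and 7.02 in expanding mannitol leaves, with control means of 4.74 in mature and 3.86 in expanding leaves. Its difference of 2.62 was close to the threshold (adjusted p = 0.0449) and ranged up to an adjusted p of 0.127 over the alternatives.

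Other genes were low in expanding mannitol leaves and overlapped the control values at maturity. AT1G19960 had 8.76, 8.41 and 8.84 in mature mannitol leaves, against 4.79, 4.67 and 4.22 in expanding mannitol leaves, a 17.3-fold rise. The control values were 8.68, 8.78 and 8.86 in mature and 7.21, 8.11 and 8.19 in expanding leaves, a rise of 0.94 (difference 3.17, adjusted p = 4.39e-07, limma). PCC1 (AT3G22231), a small protein under clock and pathogen control, had 10.69, 9.39 and 10.88 in mature against 7.45, 7.03 and 7.17 in expanding mannitol leaves (3.1); its control levels overlapped, at 11.51, 10.08 and 10.97 in mature and 11.67, 10.70 and 11.03 in expanding leaves.

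In a further form, genes fell in control leaves and under mannitol fell less, were not called or rose. GH9B8, a family 9 glycosyl hydrolase of cell walls, fell by 0.82 under mannitol and by 2.54 in control leaves (difference 1.73), and AT4G15620 by 1.78 and 3.45 (1.67). The lectin-like gene AT5G03350 was not called under mannitol (-0.12) and fell by 2.58 in control leaves (2.46, adjusted p = 0.0112, limma). AT1G05310, a pectin methylesterase-family gene, rose by 1.47 under mannitol and fell by 0.68 in control leaves (2.15). Of 15 flavonoid genes 5 fell and 0 rose under mannitol and 4 fell in control leaves. The difference was called, and positive, for 2 of the 15, against 1.66% of all genes. These were chalcone synthase TT4 (AT5G13930), which fell by 1.85, and flavonol synthase FLS1, which fell by 1.84, with control falls of 3.03 and 3.01 (differences 1.18 and 1.17, adjusted p = 0.0261 and 0.0106). TT4 ended at 9.77, 9.88 and 9.65 in mature mannitol leaves, above the 8.39, 8.97 and 8.47 of mature control leaves.

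Hormone lists beside abscisic acid and ethylene had counts on both sides. Of 20 jasmonate genes 8 rose and 2 fell (0 without mature or expanding mannitol replicate 1), led by the repressor TIFY7 (JAZ9, 1.74) and the allene oxide synthase AOS (1.19). Auxin genes had 7 rises (36.8%) and 5 falls (26.3%) among 19, with IAA19 at -1.22 and SAUR15 at 0.88. In the gibberellin list 5 of 19 rose and 5 fell (26.3% each), near the shares over all genes. There were 3 rises without expanding mannitol replicate 2 and 3 falls without mature mannitol replicate 3. GASA1 rose by 1.90 and the catabolic oxidase ATGA2OX1 by 1.62, while GASA4 fell by 1.22 and the DELLA protein RGL1 by 1.15. Cytokinin genes had 3 rises and 3 falls among 14 (21.4% each), against 18.6% and 21.5% of all genes; the falls were 0 without mature mannitol replicate 2 and 1 without expanding mannitol replicate 3 or with the arrays centred. There were 2 rises and 6 falls among 11 brassinosteroid genes, DWF1, a synthesis enzyme, falling by 1.62.

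Growth regulator and polarity lists had few large changes. Of 20 growth regulators 6 fell and 3 rose; TCP3 fell by 1.47, GRF2 by 1.3 and ANT, a promoter of organ growth, by 0.95, and ROT3, a cytochrome P450 of brassinosteroid synthesis, rose by 1.44. AN3, a coactivator of cell proliferation, stood at a mean of 4.23 in mature and 4.29 in expanding mannitol leaves and was not called. Of 12 endocycle genes 3 rose (25.0%) and 5 fell (41.7%), CYCA2;3 by 1.63. The falls were 3 without mature mannitol replicate 3 or expanding mannitol replicate 2. Of 12 leaf polarity genes 2 rose (16.7%) and 3 fell (25.0%), REV by 0.82, and the rises were 1 under several alternatives. Trichome genes had 1 rise (TTG1, 0.44) and 1 fall (GL2, -0.80) among 7. Of the 8 meristem genes CLV1 fell (-0.62) and the other 7 were not called, and of the 6 root genes PYK10 fell (-1.46).

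Among the remaining lists, 5 of 8 proline genes rose and 1 fell, the catabolic genes AT5G38710 by 1.82 and ERD5 by 1.15 and the aminotransferase DELTA-OAT by 0.83. Of 9 heat shock genes HSP70 rose by 2.15 and HSP90.1 by 1.78 under mannitol; 5 rose and 1 fell in control leaves. The difference was called for HSFA2, and for 4 of the 9 with the replicate block within each stage, all negative. Negative calls over all genes were 1.76%, or 3.28% with that block. HSFA2 had 3.87, 3.42 and 3.38 in mature against 3.40, 3.6 and 3.33 in expanding mannitol leaves, where mature control leaves had 6.65, 3.78 and 5.56. Of 11 clock genes 4 rose and 3 fell, RVE1 by 1.56 upward and ELF3 by 1.52 downward, in leaves whose hour of harvest is not stated. Of 12 iron genes FER4 and FER3, ferritins that store iron, fell by 1.96 and 1.64 and YSL3 rose by 0.66. YSL3 lost its call without expanding mannitol replicate 2 (adjusted p = 0.0575, limma). Phosphate-starvation genes had 2 rises among 11, SQD2 (1.04) and PHO2 (0.81), and 0 falls. The rises were 4 with the arrays centred or quantile-normalized, with the mannitol arrays of the 2 stages alone, or without expanding mannitol replicate 3. Of 73 plastid-encoded genes 13 rose (17.8%) and 15 fell (20.5%), close to the shares over all genes. The rises were 7 without mature mannitol replicate 2, and the falls 9 without mature and 8 without expanding mannitol replicate 1. Of 31 mitochondrial-encoded genes 10 rose and 2 fell, where 17 rose and 0 fell in control leaves. The falls were 1 under several alternatives. The difference was called for 3 of the 31, all negative, against 1.76% of all genes. With the replicate block within each stage 6 were called, all negative, against 3.28% of all genes.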

How the data were processed

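The deposited values are log2 levels that the authors made with RMA, per the submitters' processing notes; they run from 2.52 to 14.4 with 1 value for each locus on an array. The RMA version, build and probe grouping were not stated in the sources used. All 24 arrays (0 columns unused) entered a limma 3.58.1 fit (R 4.3.3) of 8 group means, with no further normalization or filter. Contrasts were mature minus expanding leaf under mannitol, the same in control, and their difference, each adjusted by Benjamini-Hochberg over 20777 loci and called at an adjusted p under 0.05. The fit was tested on simulated data. Reference table TAIR10.1 named 20508 loci; of 972 memberships in 54 lists, 909 were measured, 61 were not and 2 were dropped for a symbol that did not match. Named genes are the 12 largest rises and 12 largest falls with no overlap of the arrays, up to 4 called members a list, the 10 largest differences each way and a fixed panel; the panel genes LHCB1.1 and RBCS1A were not measured. Other members are given as values. Members and lists were chosen with earlier results of these data known. Same-numbered mature and expanding mannitol arrays had deviations correlated at 0.09, 0.15 and 0.03. Pairing required every pair to be over the limit of 0.1, so these arrays were not paired. Between media of a stage all 3 expanding pairs and 2 of 3 mature pairs passed it, so the difference was also fitted with the number as a block within each stage. The planned promoter motif search was not run, as no promoter sequences were used here. The text describes part of the 226 genes the rule selects.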

Additional observations from a re-analysis of the deposited data

Results flagged for a closer look

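The 20 genes named here had the largest differences between media among genes called by the limma test of the difference. That all of them pass this test follows from the choice. LTP3, PNP-A and AT4G15620 lost the call under some alternatives (highest adjusted p 0.127, 0.0521 and 0.0567, limma). Negative differences (change in mannitol minus change in control, log2) were LTP2 -4.98, AT2G43620 -4.75, ATPMEPCRB -4.28, PNP-A -4.03, AT3G16530 -4.0, AT1G26380 -3.98, AT1G65500 -3.88, BCB -3.87, CYP81F2 -3.75 and WRKY30 -3.72. Positive differences were PCC1 3.39, AT1G19960 3.17, LEA7 3.04, LTP3 2.62, AT5G03350 2.46, AT1G05310 2.15, AT3G13672 1.96, GH9B8 1.73, LEA4-5 1.71 and AT4G15620 1.67.

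In several of these genes the second replicate stood apart from the others in mature leaves of both media. PNP-A had 6.54, 3.84 and 5.71 in mature mannitol and 6.46, 3.24 and 4.54 in mature control leaves. AT3G16530 had 8.90, 6.10 and 8.47 in mature mannitol and 9.02, 6.95 and 8.55 in mature control leaves. AT5G03350 had 10.04, 8.62 and 9.83 in mature mannitol and 9.51, 7.56 and 8.95 in mature control leaves. What sets these replicates apart was not tested.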

How the results depend on the processing

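Leaving out 1 array at a time gave 3394 to 3560 rises and 3921 to 4200 falls under mannitol, 3477 to 3971 rises and 3959 to 4481 falls in control leaves, and 184 to 533 positive and 252 to 537 negative differences. The positive differences numbered 184 without mature mannitol replicate 2, 211 without mature control replicate 3 and 533 without expanding control replicate 2. They also numbered 185 when the arrays of expanding and mature leaf alone were fitted. The other counts over all genes, 82 of 88, stayed within 1.5 times the values in the report. With arrays centred on their median there were 281 positive and 420 negative differences, a positive share of 40.1%. With the replicate number as a block there were 3875 rises and 4541 falls under mannitol and 349 positive and 390 negative differences. With the block within each stage, chosen after seeing the data, there were 658 positive and 681 negative differences. Of 226 named genes under mannitol, 20 of 2933 recomputed values lost the call, and of 20 named differences 15 of 379 did, 12 of them for LTP3. No called value of these changed sign; AN3 and AT5G03350, not called under mannitol, did. Among list counts 93 of 1404 moved by over 1.5 times, mostly counts of 1 or 2 members. Causes were not tested. The number of arrays, 3 a group, and dim signal limit what can be called.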

Other observations

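Among 6217 genes called in both media, 73 changed in opposite directions (1.17%). These genes were picked after their values were seen. In 45 the change was a fall under mannitol and a rise in control leaves. XBAT34 (AT4G14365) was one of them, with means of 5.98 in mature and 8.35 in expanding mannitol leaves, against 6.04 in mature and 4.85 in expanding control leaves. Its changes were -2.37 under mannitol and 1.19 in control leaves. The mature means of XBAT34 lay close together in the 2 media while the expanding means were far apart.

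In the other 28 the change was a rise under mannitol and a fall in control leaves. PSK3 (AT3G44735), a precursor gene of the peptide hormone phytosulfokine, had means of 8.47 in mature and 7.79 in expanding mannitol leaves, against 7.33 in mature and 7.93 in expanding control leaves. Its changes were 0.68 under mannitol and -0.60 in control leaves.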
